A study of Rattus norvegicus with 16 samples.

Results

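In rat, 10 genes of fatty acid synthesis, elongation and desaturation were followed in isolated pancreatic islets, in which a nuclear receptor of lipid metabolism, PPARγ (peroxisome proliferator-activated receptor gamma), was supplied by an adenovirus and activated by the agonist GW347845. The genes were Acly, Acaca, Fasn, Me1, Elovl5, Elovl6, Scd, Fads1, Fads2 and Srebf1, and every probe set whose symbol in the array annotation named 1 of them was taken. This gave 15 probe sets for the 10 genes, among 15923 probe sets in all. Of the 15, 13 were bright enough to be tested, and each of the 10 genes kept at least 1 of them.

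The 4 groups were islets given the PPARγ virus and then GW347845, islets given the PPARγ virus and then vehicle, islets given a null virus and then GW347845, and islets given a null virus and then vehicle. Virus was present for 32 h, at a multiplicity of infection of 50, before 16 h in 200 nM GW347845 or in the vehicle, 0.004% DMSO. All groups thus carried an adenovirus, and no uninfected islets were among them. Each group had 4 columns, but the columns of null virus replicate 2 in compound and in vehicle held identical values and were left out, so that 4 arrays remained in each PPARγ virus group and 3 in each null virus group. Nothing in the labels tells whether the replicates came from different islet preparations, so the p-values measure only the spread between these arrays, which may be technical. The animals' strain and age, the promoter of the virus and the species of its PPARγ cDNA are not stated in the sources used.

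Cells make fatty acids in the cytosol from citrate. ATP citrate lyase (Acly) splits citrate into acetyl-CoA, acetyl-CoA carboxylase 1 (Acaca) turns this into malonyl-CoA, and fatty acid synthase (Fasn) joins the units into palmitate with NADPH, part of which comes from malic enzyme (Me1). Elongases (Elovl6 for saturated and monounsaturated chains, Elovl5 mainly for polyunsaturated ones) then lengthen the chain, and desaturases (Scd at delta-9, Fads1 at delta-5, Fads2 at delta-6) put in double bonds. The transcription factor SREBP-1 (Srebf1) activates many of these genes, LXR raises Srebf1, and PPARγ is best known for fat storage in adipocytes. In beta cells the malonyl-CoA made by this route also curbs the entry of fatty acids into mitochondria.

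To show the start regions of the elongase that rose and of the adjacent pair of polyunsaturated fatty acid desaturases, the 250 bases before the annotated start are given from RefSeq on GRCr8, 5′ to 3′ on the gene's strand. Capitals mark matches to the motifs searched for. Elovl5 lies on the plus strand (chr8:87670914-87671163), Fads1 on the plus strand (chr1:216252442-216252691) and Fads2 on the minus strand (chr1:216172034-216172283).
Elovl5: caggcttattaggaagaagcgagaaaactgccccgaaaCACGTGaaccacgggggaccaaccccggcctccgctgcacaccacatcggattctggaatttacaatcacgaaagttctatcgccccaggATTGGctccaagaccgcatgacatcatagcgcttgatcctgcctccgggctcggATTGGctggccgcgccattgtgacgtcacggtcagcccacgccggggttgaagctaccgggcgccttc
Fads1: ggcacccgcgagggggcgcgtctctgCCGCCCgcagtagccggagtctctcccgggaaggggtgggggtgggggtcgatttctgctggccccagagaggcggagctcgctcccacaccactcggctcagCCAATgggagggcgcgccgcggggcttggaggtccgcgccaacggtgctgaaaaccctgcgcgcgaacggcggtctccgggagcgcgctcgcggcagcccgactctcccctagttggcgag
Fads2: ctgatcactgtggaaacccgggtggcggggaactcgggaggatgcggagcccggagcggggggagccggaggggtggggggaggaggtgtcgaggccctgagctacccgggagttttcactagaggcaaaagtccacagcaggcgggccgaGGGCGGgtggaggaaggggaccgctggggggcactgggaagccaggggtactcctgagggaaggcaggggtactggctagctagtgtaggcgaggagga

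The motifs, searched on both strands, were a sterol response element (TCACNCCAC), the CCAAT box, an E-box (CACGTG), a GC box (GGGCGG), a PPAR direct repeat (AGGTCA repeated with 1 base between) and an LXR direct repeat (AGGTCA repeated with 4 bases between). The Elovl5 window held an E-box at 212 to 207 bases before the start and CCAAT boxes, read on the other strand, at 122 to 118 and 68 to 64 bases before it. Fads1 had a GC box on the other strand and a CCAAT box, and Fads2 had a GC box. Among 33469 rat windows of the same length, 5.59% held the E-box, 34.0% the CCAAT box, 30.5% the GC box, 0.974% the sterol element, 0.0508% the PPAR repeat and 0.00299% the LXR repeat. Windows were matched for 7 of the 10 genes (8 windows, with 2 for Srebf1), and none of the 8 held the letters of the sterol element, the PPAR repeat or the LXR repeat. Fads1 and Fads2 were neighbours on chromosome 1, with 0 protein-coding genes between them.

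Pparg itself checked the virus. Its probe set 1369179_a_at averaged 5510 ± 640 with the PPARγ virus and GW347845 and 5593 ± 582 with the PPARγ virus and vehicle (SD, n = 4 each), against 35.8 ± 13.7 with the null virus and GW347845 and 33.0 ± 5.74 with the null virus and vehicle (SD, n = 3 each). The values are the deposited linear intensities, scaled by the authors to the same trimmed mean on each array (150.0), with array medians between 56.4 and 67.5 over the 14 arrays. Changes were tested as differences of log2(intensity + 4.6) with limma over 10078 probe sets, with Benjamini-Hochberg adjustment and a threshold of 0.05 on the adjusted p. Of 8 listed beta cell markers, 6 had a probe set. Their sum was 12708 to 17808 with the PPARγ virus and GW347845 and 13916 to 17110 with the PPARγ virus and vehicle. With the null virus it was 15768 to 16891 in GW347845 and 15188 to 20089 in vehicle. Ins1 lay between 4627 and 7093 over all 14 arrays. Pdx1, much dimmer than Ins1, was lower with the PPARγ virus and GW347845 than with the null virus and vehicle (log2 −0.67, adjusted p = 0.0904 by limma). For the PPARγ against the null virus it gave −0.58 in GW347845 (adjusted p = 0.149 by limma) and −0.47 in vehicle (adjusted p = 0.774 by limma). Its arrays did not overlap in these comparisons, those of the other beta cell markers did, and none of the markers passed. Markers of acinar, duct, endothelial or stromal and leukocyte cells were also present in every group, while Cpa1, Cel, Pecam1, Vwf, Ptprc, Plin1, Lep and Cfd never exceeded the filter of 39.3. The 4 adipocyte markers with a probe set, of 6 listed, summed to 304 to 832 with the PPARγ virus and GW347845, 68.1 to 101 with the PPARγ virus and vehicle, 56.8 to 72.5 with the null virus and GW347845 and 45.4 to 64.9 with the null virus and vehicle. Fabp4, itself a PPAR target, was the only one of the 4 above the filter, and the part of adipocytes in the results was not tested.

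Of the 10 genes, the elongase gene Elovl5 alone passed the test in any comparison. With the PPARγ virus and GW347845 against the null virus and vehicle, 1 of the 13 probe sets passed, Elovl5 1388348_at, which rose 1.43-fold, and 0 fell. Among all probe sets tested, 0.665% passed in that comparison, and 0.605% passed upward. Of the 13 changes 4 were positive and 9 negative, with a median log2 change of −0.05 beside −0.03 over all probe sets tested. Fold changes are on the log2(intensity + 4.6) scale, which understates the change of dim probe sets.

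**Figure D1:**
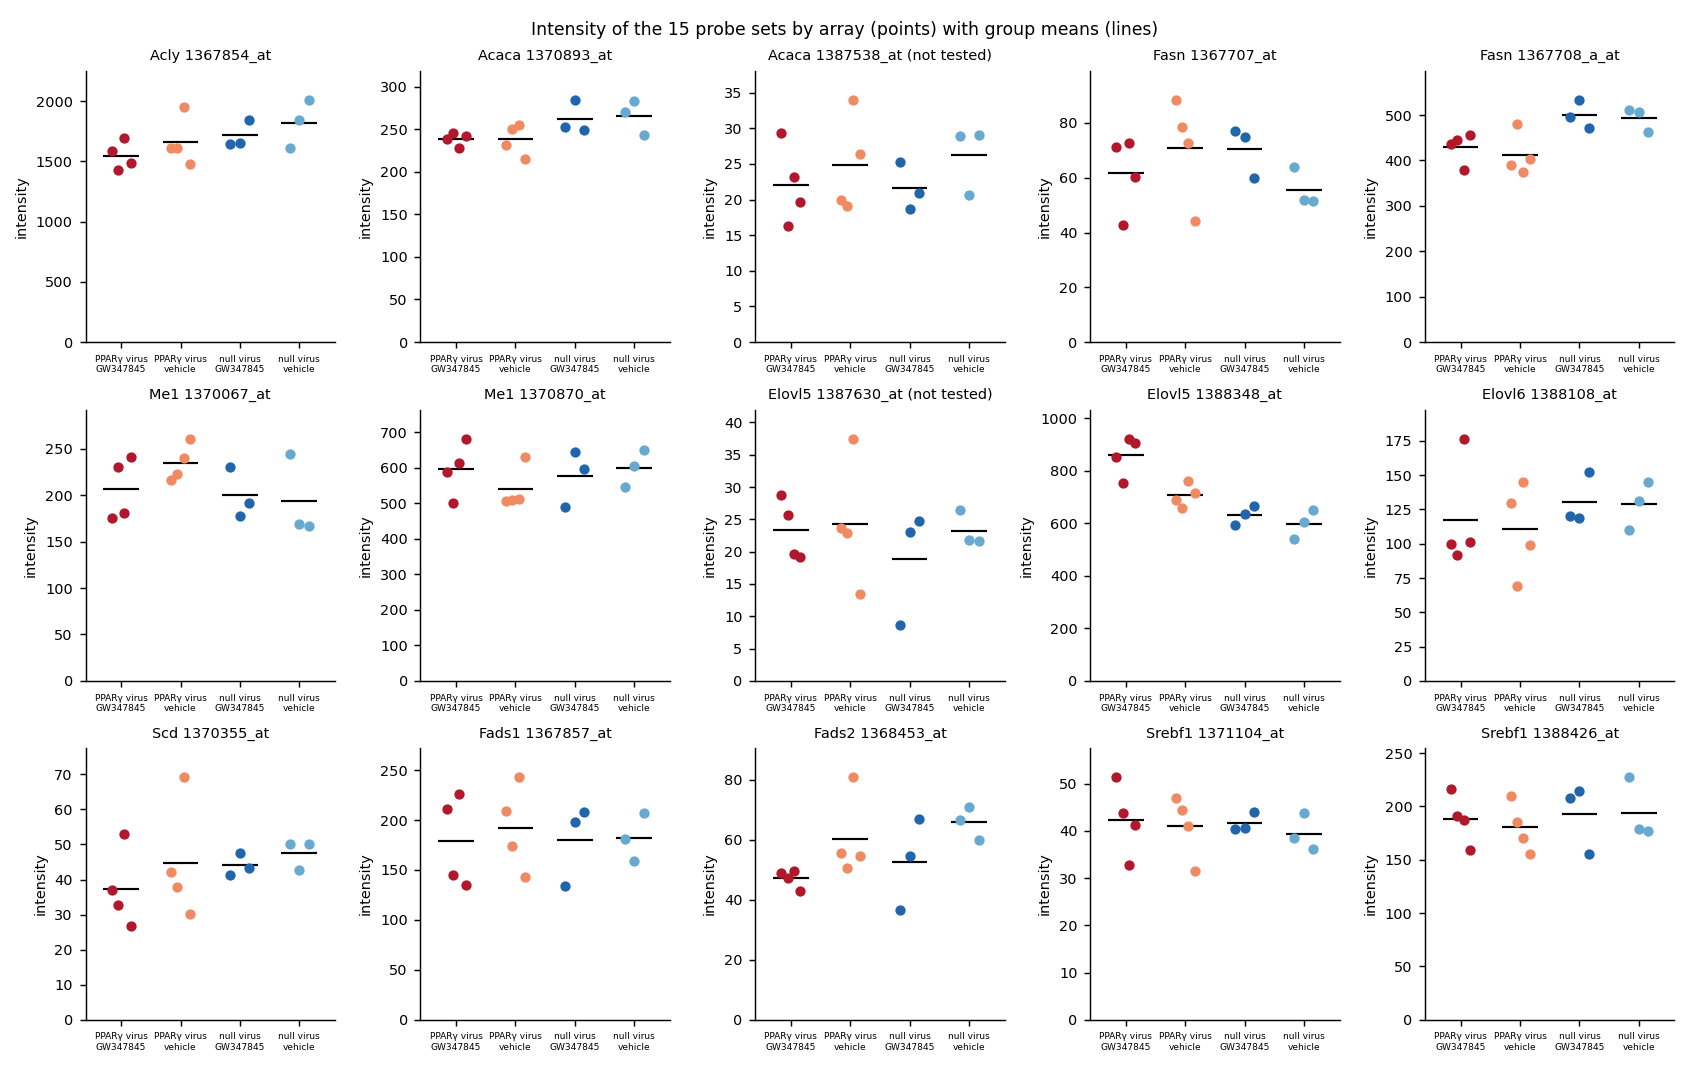
Deposited intensity (linear axis from 0) of each of the 15 probe sets, 1 point per array and a line at each group mean, with 4 arrays in each PPARγ virus group and 3 in each null virus group. Elovl5 1388348_at is the panel in which all 4 arrays with the PPARγ virus and GW347845 (754.6 to 922) lie above all 6 null virus arrays (540.9 to 665.2), and the probe sets marked as not tested stayed below 39.3 in every array.

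Citrate cleavage, carboxylation and synthesis come first in the pathway. Acly 1367854_at had intensities of 1587.5, 1424.5, 1695.3 and 1481.9 with the PPARγ virus and GW347845, 1607.5, 1609.2, 1949.3 and 1479.1 with the PPARγ virus and vehicle, 1647.1, 1652.4 and 1846.5 with the null virus and GW347845, and 1611.4, 1839.1 and 2011 with the null virus and vehicle. Its lowest array was in the first of these groups and its highest in the last, and the 2 groups overlapped. The fold change between them was 0.85 (95% confidence interval 0.727 to 0.998), with an unadjusted p of 0.0472 and an adjusted p of 0.583 by limma, so Acly did not pass. In bulk islets, fewer cells that express a gene and less RNA per cell cannot be told apart.

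Acaca 1370893_at ranged from 227.7 to 245.8 with the PPARγ virus and GW347845, from 215 to 255.2 with the PPARγ virus and vehicle, from 248.6 to 284.5 with the null virus and GW347845, and from 242.5 to 282.9 with the null virus and vehicle. All 4 arrays with the PPARγ virus and GW347845 lay below the 3 arrays with the null virus and GW347845, yet the log2 difference was −0.13 (−0.35 to 0.09) and did not pass (adjusted p = 0.808 by limma). The other Acaca probe set, 1387538_at, lay between 16.3 and 34 in all 14 arrays, below the filter, and was not tested.

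Fasn had a bright and a dim probe set, and they did not move together. The bright one, 1367708_a_at, read 437.1, 444.6, 379.9 and 455.4 with the PPARγ virus and GW347845, 389.7, 479.8, 374.2 and 403.7 with the PPARγ virus and vehicle, 496.2, 533.8 and 472.5 with the null virus and GW347845, and 512.1, 506.3 and 463.2 with the null virus and vehicle. Arrays with the PPARγ virus and GW347845 all lay below both null virus groups, and those with the PPARγ virus and vehicle lay below them in 3 of 4 arrays. The log2 changes were −0.20 (−0.44 to 0.03, adjusted p = 0.673) for both agents against neither, −0.22 (−0.46 to 0.01, adjusted p = 0.580) for the virus in compound, and −0.26 (−0.50 to −0.03, adjusted p = 1.00, unadjusted p = 0.0290) for the virus in vehicle, all by limma, and none passed. The dim probe set, 1367707_at (42.6 to 88.5 over the 14 arrays), gave log2 changes of 0.12, −0.20 and 0.29 in the same 3 comparisons, with intervals that all spanned 0. Across the 14 arrays the deviations of the 2 Fasn probe sets from their group means had a Pearson r of −0.01.

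Me1, which supplies NADPH, likewise had a pair of probe sets with opposite signs for the virus in vehicle. For 1370870_at the log2 change was −0.16 (−0.44 to 0.12), with means of 539 ± 60.3 for the PPARγ virus and 601 ± 52.1 for the null virus, and for 1370067_at it was 0.29 (−0.05 to 0.64). Both intervals span 0. With both agents against neither, the 2 changes were −0.01 and 0.10.

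Elovl5 1388348_at carried the 1 call. Its intensities were 851.1, 754.6, 922 and 906.1 with the PPARγ virus and GW347845, 689.9, 656.2, 761.3 and 716.3 with the PPARγ virus and vehicle, 594.2, 633.3 and 665.2 with the null virus and GW347845, and 540.9, 603.9 and 649 with the null virus and vehicle. The group means ran in that order, from 858 ± 75.6 and 706 ± 44.4 (SD, n = 4 each) with the PPARγ virus to 631 ± 35.6 and 598 ± 54.3 (SD, n = 3 each) with the null virus. The first group overlapped neither null virus group, and overlapped the vehicle-treated PPARγ virus group by 1 array on each side (754.6 against 761.3).

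The rise of Elovl5 with both agents was 0.52 on the log2 scale (0.30 to 0.74), a 1.43-fold change (1.23 to 1.66), with an adjusted p of 0.0295 by limma. An exact two-sided permutation test on this probe set alone, 4 arrays against 3, gave p = 0.0571, the smallest it can give. The call was lost in the fits without replicate 1, 3 or 4 of the PPARγ virus with GW347845 (adjusted p = 0.0787, 0.0949 and 0.104) and without replicate 1 or 3 of the null virus with vehicle (adjusted p = 0.190 and 0.0988), while the change stayed between 0.45 and 0.58 in every alternative run. The dimmer Elovl5 probe set, 1387630_at, lay between 8.6 and 37.5 in the 14 arrays, below the filter, and gives no second reading. Among the duct markers with a probe set, Krt19 passed in the same comparison, as 1 of 4 (0.605% of all probe sets passed upward). It read 296.1, 205, 226.3 and 245.2 with both agents and 141.5, 83.4 and 72.2 with neither (log2 1.30, adjusted p = 0.0391 by limma). For the virus in compound it passed as well (log2 1.36, adjusted p = 0.0284 by limma), where 0.635% of all passed upward. The sum of the 4 was 3367 to 3617 with both agents and 3095 to 4359 with neither, and the part of duct cells in the Elovl5 result was not tested.

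Of its parts, the virus in compound gave Elovl5 a log2 change of 0.44 (0.22 to 0.66, 1.36-fold, adjusted p = 0.0765) and the virus in vehicle 0.24 (0.02 to 0.46, adjusted p = 1.00), by limma. GW347845 gave 0.28 (0.08 to 0.48, adjusted p = 1.00) under the PPARγ virus and 0.08 (−0.15 to 0.31, adjusted p = 1.00) under the null virus. None of the 4 passed over all probe sets tested. For the virus in compound, Elovl5 passed in 5 of 26 alternatives (adjusted p 0.00796 to 0.261 by limma over the 26), the lowest with a replicate block over all groups. Across viruses, however, only arrays of number 1 deviated together (r of 0.299 to 0.433, against −0.139 to 0.128 for numbers 3 and 4). The difference between the compound's effects under the 2 viruses, the interaction, was 0.20 (−0.11 to 0.51, adjusted p = 1.00 by limma). With arrays paired by number within each virus, its interval narrowed to −0.002 to 0.40 (unadjusted p = 0.0520, adjusted p = 0.859 by limma). In that paired fit GW347845 under the PPARγ virus gave 0.28 (0.15 to 0.41, unadjusted p = 0.00066, adjusted p = 0.111 by limma). Neither passed, so the effect under the PPARγ virus was not shown to differ from that under the null virus.

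Arrays that share a number within a virus deviated together, and they can be compared as pairs. Elovl5 was higher in GW347845 than in vehicle in 4 of 4 pairs with the PPARγ virus, by 0.20 to 0.34 on the log2 scale, and in 3 of 3 with the null virus, by 0.04 to 0.13. Of all probe sets tested, 2.27% had all 7 pairs on 1 side. The 3′ to 5′ ratio of β-actin, a measure of RNA quality on the array, was also higher with GW347845 in 7 of 7 pairs (10.5 to 14.9 in GW347845 against 7.58 to 13.4 in vehicle with the PPARγ virus, and 10.01 to 14.5 in GW347845 against 7.83 to 11.7 in vehicle with the null virus), and that of Gapdh in 4 of 7. Their part in the Elovl5 result was not tested.

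**Figure D2:**
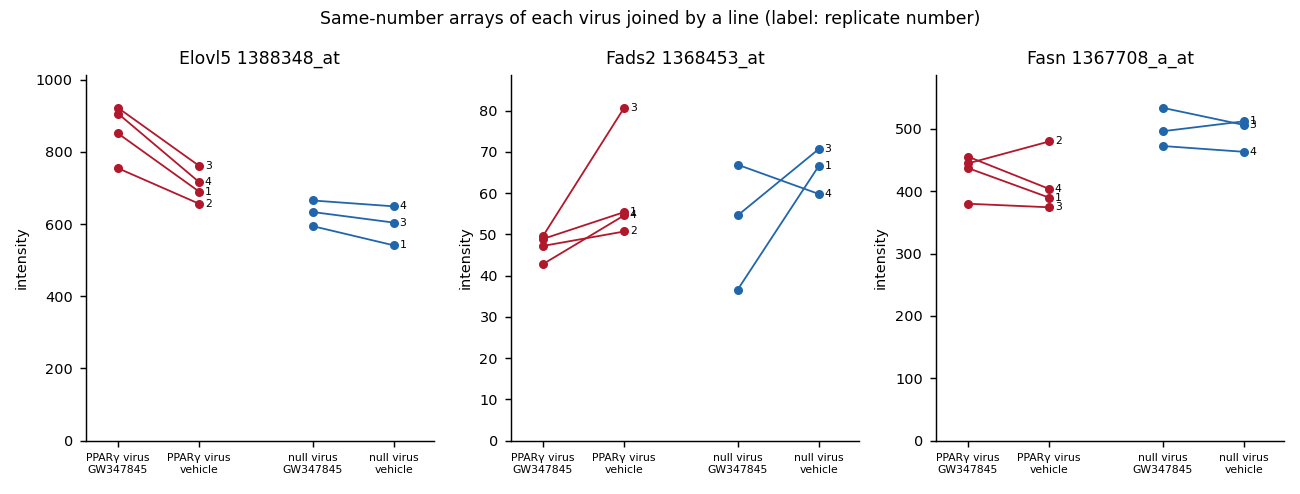
Intensity (linear axis from 0) of Elovl5, Fads2 and the bright Fasn probe set, with arrays of the same replicate number joined within the PPARγ virus (4 pairs) and within the null virus (3 pairs), GW347845 left of vehicle. The 7 Elovl5 lines all end lower in vehicle, 6 of the 7 Fads2 lines end higher in vehicle, and 5 of the 7 Fasn lines end lower in vehicle.

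The other elongase, Elovl6 1388108_at, read 99.6, 92.1, 176.6 and 101.6 with the PPARγ virus and GW347845, 129.3, 69.1, 145.2 and 99.4 with the PPARγ virus and vehicle, 120.4, 118.7 and 152.3 with the null virus and GW347845, and 109.7, 131.2 and 145 with the null virus and vehicle. Replicate 3 was the highest array of both PPARγ virus groups and replicate 2 the lowest. The log2 change with both agents against neither was −0.17 (−0.69 to 0.36) and did not pass, and the groups overlapped.

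Among the desaturases the levels were lower on average with both agents, and none passed. Fads2 1368453_at read 48.9, 47.2, 49.6 and 42.8 with the PPARγ virus and GW347845, 55.4, 50.7, 80.7 and 54.6 with the PPARγ virus and vehicle, 36.6, 54.6 and 66.9 with the null virus and GW347845, and 66.6, 70.7 and 59.8 with the null virus and vehicle. All 4 arrays of the first group lay below all arrays of both vehicle groups, and only the null virus with GW347845 overlapped it. The log2 change was −0.44 (−0.85 to −0.03) with both agents against neither (unadjusted p = 0.0366, adjusted p = 0.546), −0.31 (−0.69 to 0.07) for the compound under the PPARγ virus and −0.33 (−0.77 to 0.11) under the null virus, by limma. Fads2 is dim, with 13 of 14 arrays above the filter of 39.3.

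Scd 1370355_at, a delta-9 desaturase, was dimmer still, with 9 of 14 arrays above the filter. It lay between 26.7 and 53 with the PPARγ virus and GW347845, 30.2 and 69.1 with the PPARγ virus and vehicle, 41.4 and 47.5 with the null virus and GW347845, and 42.6 and 50.2 with the null virus and vehicle. The log2 change with both agents was −0.35 (−0.87 to 0.17). GW347845 arrays were above their vehicle partners in 1 of 7 pairs for Scd and likewise in 1 of 7 for Fads2. The share of all probe sets with such a count was not worked out.

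Fads1 1367857_at ranged widely within groups, from 134.7 to 226.1 with the PPARγ virus and GW347845, 142.7 to 242.6 with the PPARγ virus and vehicle, 133.5 to 208.2 with the null virus and GW347845, and 158.9 to 207.2 with the null virus and vehicle. Its log2 change with both agents was −0.05 (−0.52 to 0.42).

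Srebf1, the regulator, showed no call in any comparison. Its brighter probe set, 1388426_at, lay between 158.9 and 216.5 with the PPARγ virus and GW347845, 155.7 and 209.7 with the PPARγ virus and vehicle, 155.4 and 214.7 with the null virus and GW347845, and 176.9 and 227.1 with the null virus and vehicle. The 4 groups overlapped throughout. With both agents the log2 change was −0.04 (−0.37 to 0.28) there and 0.08 (−0.30 to 0.46) on the dimmer 1371104_at, whose intensity was above the filter in 10 of 14 arrays. The array measures the messenger of Srebf1, not the processing of the protein.

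**Figure D3:**
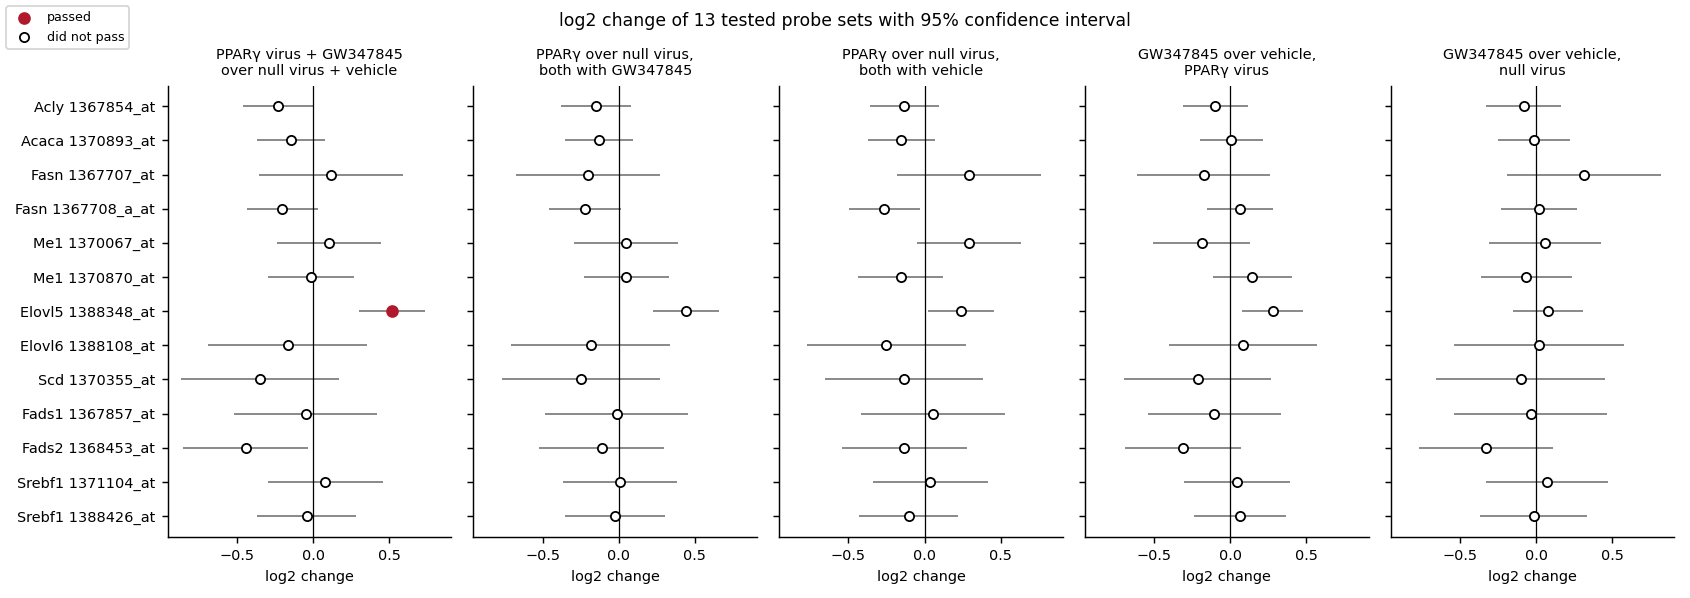
Log2 change with its 95% confidence interval for the 13 tested probe sets in 5 comparisons, with the zero line drawn, where a filled point passed the adjusted threshold of 0.05. Elovl5 with both agents (0.52) is the 1 filled point, and its intervals lie above 0 in every panel but that of the compound under the null virus.

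In each of the comparisons 0 or 1 of the 13 probe sets passed. An unadjusted limma p under 0.05 was reached by 3 of 13 with both agents against neither (8.48% of all probe sets), 1 for the virus in compound (9.19%), 2 for the virus in vehicle (4.43%), 1 for GW347845 under the PPARγ virus (2.93%), 0 under the null virus (0.943%) and 0 for the interaction (1.42%). For the virus in compound 0 of 13 passed (0.705% of all probe sets did), and 3 of 13 had groups whose arrays did not overlap, namely Elovl5 above and Acaca and the bright Fasn probe set below (9.82% of all). For the virus in vehicle 0 passed (0.0397% of all), and Elovl5 alone of the 13 did not overlap (4.62% of all). With GW347845 under the PPARγ virus 0 passed (0.0595% of all), and Fads2 alone did not overlap (1.8% of all). With GW347845 under the null virus 0 passed (0.0% of all, with 95 probe sets at an unadjusted p under 0.05 by limma, 0 of them members), and all 13 overlapped (4.61% of all did not). For both agents against neither, 3 of 13 did not overlap, Elovl5 above and the bright Fasn probe set and Fads2 below (8.95% of all). The interaction had 0 calls among the 13 (0.0% of all, with 143 at an unadjusted p under 0.05 by limma, 0 of them members). With arrays paired by number within each virus, 0 of the 13 passed for GW347845 under the PPARγ virus (0.397% of all), under the null virus (0.0%) or for the interaction (0.0496%).

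The half-width of the 95% confidence interval had a median of 0.34 on the log2 scale over the 13 probe sets in comparisons of 4 against 3 arrays, with a range of 0.22 to 0.52, and a change smaller than its half-width has an interval that spans 0. Comparisons that use the same arrays share their errors: both agents against neither and the virus in compound use the same 4 arrays on one side.

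The rest of the lipogenic route was taken from lists of other genes of the pathway. Over all probe sets tested, 0.665% passed with both agents against neither, 0.605% passed upward, and the median log2 change was −0.03. Supply of citrate, acetyl-CoA and NADPH had 9 of 10 genes tested, and 0 rose and 0 fell with both agents, with a median of −0.02. Idh1, the cytosolic NADPH-forming isocitrate dehydrogenase, averaged 1399 ± 364 with both agents and 894 ± 88.5 with neither, a log2 change of 0.61 (adjusted p = 0.189) that did not pass. Slc25a1, the mitochondrial citrate carrier, gave −0.43 and Taldo1 0.19, also without passing. Other genes linked to malonyl-CoA or to mitochondrial fatty acid synthesis had 4 of 8 tested, 0 called and a median of 0.13. Cpt1a, of the mitochondrial entry step that malonyl-CoA curbs, gave 0.49 on its brighter probe set and −0.28 on the other. Mcat gave 0.17 and Mlycd 0.08, and Acacb was not among the genes tested. Cholesterol synthesis and uptake, which SREBP-2 drives, had 12 of 16 tested, 0 called and a median of 0.13 (Idi1 0.43, Fdps 0.28, Dhcr7 0.26).

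Lipogenic regulators other than Srebf1 had 12 of 16 tested, with 1 that rose (0.605% of all probe sets did) and 0 that fell. Their median was 0.20, beside −0.03 over all probe sets tested. The riser was Nr1h3, the gene of the oxysterol receptor LXRα, which read 58.5, 61.1, 48.1 and 49.6 with both agents and 26, 21.8 and 24.4 with neither. Its log2 change was 1.04 (adjusted p = 0.00927 by limma). All 6 null virus arrays of Nr1h3 lay below the filter of 39.3, so it was tested through the PPARγ virus arrays in which it was high. Insig1, which holds SREBP in the endoplasmic reticulum, gave 0.52 (adjusted p = 0.426), Mbtps1 0.29 and Prkaa1 0.26, and none of them passed.

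Other elongation, desaturation and acyl-CoA genes had 13 of 20 tested, with 1 that rose (0.605% of all probe sets did), 0 that fell and a median of −0.01. Acsl1, which activates long-chain fatty acids to acyl-CoA, read 463.2, 396.9, 331.5 and 424.4 with both agents and 211.7, 212 and 207.6 with neither, without overlap. Its log2 change of 0.92 passed (adjusted p = 0.00219 by limma). Cyb5r3, which passes electrons to the desaturases, gave 0.72 (adjusted p = 0.256), and Cyb5a, the cytochrome b5 that takes part in the same chain, −0.48 (adjusted p = 0.127). Acsl5 gave −0.43, and none of these 3 passed.

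Beside these, the 10 listed PPAR targets of lipid handling all passed upward with both agents (0.605% of all probe sets did), among them Fabp4, a fatty acid binding protein (log2 4.70), Gpd1, which makes glycerol 3-phosphate (2.88), G0s2, an inhibitor of lipolysis (1.99), and Dgat2, the last enzyme of triglyceride synthesis (1.68). Cd36 and Ehhadh exceeded the filter only in the 4 arrays with both agents, so they were tested through the group in which they were high. Upward calls numbered 9 of 10 for the virus in compound (0.635% of all), 1 of 10 for the virus in vehicle (0.0397%), 4 of 10 for GW347845 under the PPARγ virus (0.0595%), 0 of 10 for GW347845 under the null virus (0.0%) and 0 of 10 for the interaction (0.0%). This list was drawn up with earlier results of these arrays known and is not independent evidence of its direction.

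**Figure D4:**
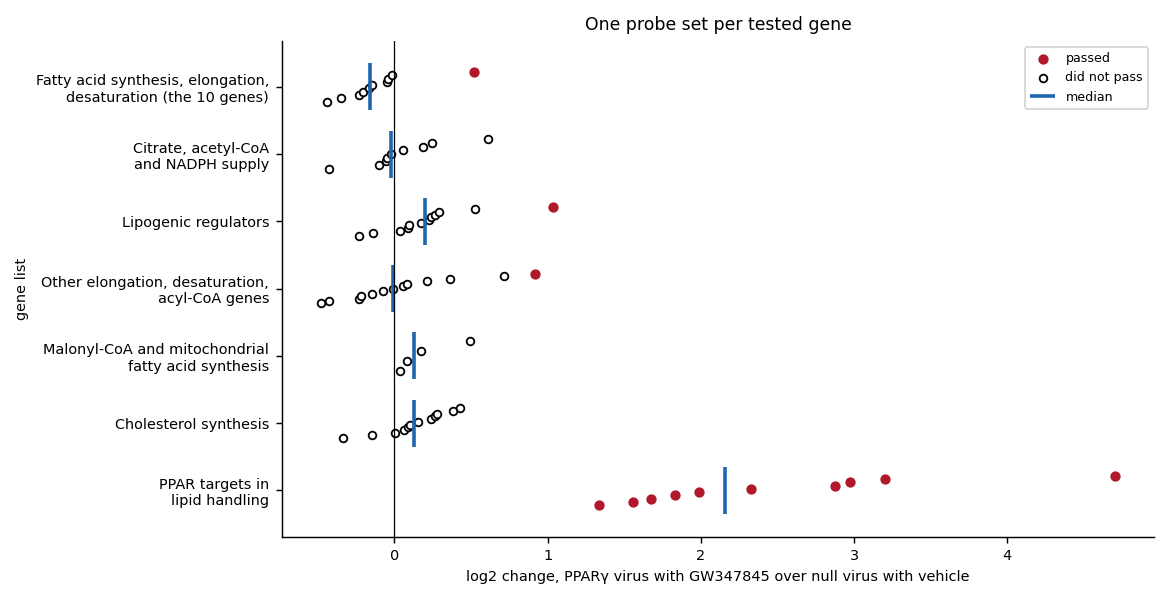
Log2 change for the PPARγ virus with GW347845 over the null virus with vehicle, 1 point per tested gene (its brightest probe set on average), with gene lists down the page and a blue line at each list's median. Among the lipogenic lists the filled points that passed are Elovl5 (0.52), Nr1h3 (1.04) and Acsl1 (0.92). Nr1h3 was above the filter in PPARγ virus arrays only. The 10 PPAR targets passed, between 1.34 and 4.70, with Cd36 and Ehhadh above the filter only in the arrays with both agents.

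Within groups, the 10 genes varied together in part. Likeness was measured as Pearson's r between the deviations of 2 probe sets from their group means on the log2 scale, over 14 arrays, and is given without a test. The arrays of 1 number and virus deviated together, so the 14 are not independent points. Over the 45 pairs of genes, each by its brightest probe set, r ran from −0.94 to 0.82 with a median of 0.19, and 28 pairs were positive. The highest were Scd with Fads1 (0.82), Acly with Elovl5 (0.74), Acly with Fads1 (0.73), Acly with Scd (0.72) and Elovl5 with Elovl6 (0.71). Fads1 and Fads2, which are neighbours in the genome, had 0.65.

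The bright Fasn probe set ran the other way, with r of −0.94 to Elovl6, −0.62 to Acly and −0.60 to Elovl5. The dim Fasn probe set did not, with 0.17 to Elovl6, 0.24 to Acly and 0.02 to Elovl5. Among all other probe sets tested, Elovl6 had the lowest r to the bright Fasn probe set (rank 10077 of 10077). Some of the deviations also tracked the islet hormones of non-beta cells. The summed intensity of Gcg, Sst, Ppy and Pyy was 8356, 453, 8899 and 2281 in replicates 1 to 4 of the PPARγ virus with GW347845, and 8451, 942, 9788 and 2401 in the same replicates of the PPARγ virus with vehicle. It was 6143, 5361 and 7412 with the null virus and GW347845, and 5325, 4569 and 9165 with the null virus and vehicle.

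Elovl6 had an r of 0.76 with this hormone sum, Fads1 0.69, Elovl5 0.65, Acly 0.62, Scd 0.60 and the bright Fasn probe set −0.72. The dim Fasn probe set had 0.53, Fads2 0.32 and Acaca −0.25. Me1 had 0.21 on its brighter probe set and −0.41 on the other, and Srebf1 0.12 and −0.05. Replicates 2 and 4 of the PPARγ virus, low in these hormones, were also the 2 lowest arrays of Fads1 in both PPARγ virus groups, and of Elovl6 in the one with vehicle. Within the groups Elovl5 followed the beta cell marker sum as well (0.75) and the β-actin ratio inversely (−0.44). With the beta cell sum Elovl6 had 0.68, Acly 0.61, Fads1 0.51, Scd 0.44 and Fads2 0.02. Acaca had −0.50, the bright Fasn probe set −0.69 and the dim one 0.36. Me1 had 0.36 on its brighter probe set and −0.35 on the other, and Srebf1 −0.09 and −0.29. The part of these measures in the group differences was not tested. With both PPARγ virus arrays of number 2 left out, an alternative chosen after seeing the data, Elovl5 passed both with the 2 agents against neither and for the virus in compound.

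**Figure D5:**
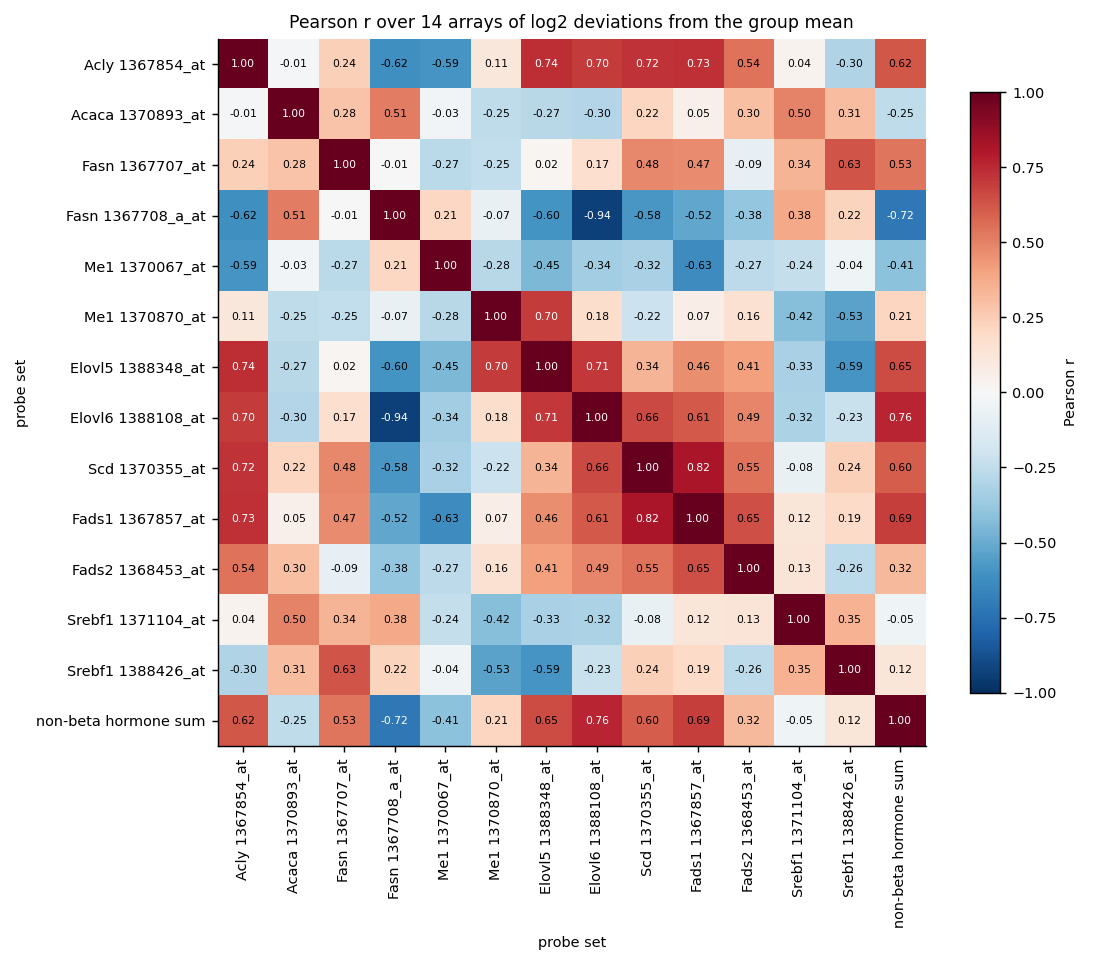
Pearson's r, printed in each cell, over 14 arrays between log2 deviations from the group mean of the 13 tested probe sets and of the summed non-beta hormones (Gcg, Sst, Ppy, Pyy). Acly, Elovl5, Elovl6, Scd, Fads1 and Fads2 form a positive block, with the bright Fasn probe set negative to each of them (−0.94 to Elovl6). With the same genes the dim Fasn probe set ran from −0.09 (Fads2) to 0.48 (Scd).

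The 3 genes most like each member by the same r were, for Elovl5, Tmem64 (0.96), Maob (0.95) and Ndufv2 (0.94), for Elovl6, St6gal1 (0.93), Plekhb2 (0.92) and Cd82 (0.91), and for Acly, Fsd1l (0.94), Arl1 (0.93) and Marcks (0.93). They were Srm (0.95), Mark1 (0.93) and Cenpb (0.91) for Fasn, Pcnt (0.91), Dyrk1a (0.88) and Nipsnap1 (0.88) for Acaca, and Trappc2b (0.94), Cst6 (0.94) and Mri1 (0.92) for Me1. For the desaturases they were Gprc5b (0.95), Katnip (0.95) and Smarca2 (0.94) for Scd, Scn7a (0.92), Ift43 (0.91) and Npy (0.91) for Fads1, and Brsk1 (0.93), Inpp5b (0.88) and Palm (0.87) for Fads2. Srebf1 had Ppp1r13l (0.94), Nr1d1 (0.93) and Trak1 (0.93). None of the 10 had another member among its 3.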

How the data were processed

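Per the labels, RNA of rat islets was hybridised to a rat expression array. The deposited values are linear intensity values, 1 per probe set, scaled by the authors to a trimmed mean of 150.0 on each array; no source used here names the summarising software or a genome build. Values were used without further normalization, as log2(intensity + 4.6), the 10th percentile of positive values. Probe sets above 39.3 (the 40th percentile) in at least 4 of 14 arrays were tested, without 57 control probe sets. The fit gave each of the 4 groups a mean (limma 3.58.1 in R 4.3.3, eBayes with trend), with Benjamini-Hochberg adjustment over 10078 probe sets, and was checked on simulated data. An array gives no count of molecules, and the number of arrays limits precision.

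The columns of null virus replicate 2 in compound and vehicle were identical in all 15923 values (other pairs in at most 0.936%) and were left out. Gene names come from the platform annotation. Their gene identifiers were looked up among RefSeq genes (12754 of 12789 matched), and 0 names changed. Plots used matplotlib 3.10.9 (Python 3.11.15). All probe sets of the 10 genes were named, with Pparg, from each pathway list up to 4 genes past the threshold by smallest adjusted p and up to 3 of smallest p that did not pass, and the 3 genes most like each member. Krt19, Pdx1, Cd36, Ehhadh, Scd2 and Fads3 were named after their values were seen. Where a gene had 2 or more tested probe sets, the one with the highest mean stands for it. The members and lists were chosen with earlier results of these data known. Deviations of same-numbered arrays from their group means correlated between 0.445 and 0.702 in 7 pairs within a virus, and between −0.139 and 0.433 in 12 pairs across viruses. The numbers thus pair arrays within each virus, and the blocked fit is an alternative there. Other alternatives changed the pseudocount, filter, scaling, columns and arrays used.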

Additional observations from a re-analysis of the deposited data

Results flagged for a closer look

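In 30 groups of 4 arrays, 3 held an array set apart from the other 3 by Dixon's criterion, which chance meets in about 1 of 20 groups. Elovl6 1388108_at read 176.6 in replicate 3 of the PPARγ virus with GW347845, against 92.1 to 101.6 in the other arrays of its group. Fads2 1368453_at read 80.7 in replicate 3 of the PPARγ virus with vehicle, against 50.7 to 55.4. Me1 1370870_at read 629.8 in replicate 4 of the PPARγ virus with vehicle, against 506.9 to 511.9.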

How the results depend on the processing

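Of 2053 values of the 13 probe sets under alternatives, 2040 stayed on their side of the threshold, 5 passed newly, 8 lost the call and 0 called values changed sign. Of the 2053, 121 values without a call changed sign, and in the main fit these were at most 0.18 in size. With both agents against neither, Elovl5 kept its call in 18 of 26 alternatives (log2 0.45 to 0.58, adjusted p 0.00268 to 0.190), and members called fell to 0 with arrays centred on the median (adjusted p = 0.0715), without the eBayes trend (0.0541) and with only the compared groups in the fit (0.154). Leaving out 1 array gave 0 to 1 members called there and for the virus in compound. For the virus in compound Elovl5 passed newly, giving 1 member called, with the replicate block over all groups (adjusted p = 0.00796), with all 16 columns, with the array of 2 labels kept as null virus with compound, without PPARγ virus with GW347845 replicate 2 (0.0409), and with both PPARγ virus arrays of number 2 left out. Why these calls moved was not tested.

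The replicate block within each virus changed no call of the 13; it gave Elovl5 an adjusted p of 0.111 for GW347845 under the PPARγ virus and 0.859 for the interaction, and called 40 of all probe sets, against 6, under the PPARγ virus (0.397%), 0 under the null virus and 5 for the interaction (0.0496%), against 0. With the replicate block over all groups, 211 probe sets were called for the virus in compound against 71, 34 for the virus in vehicle against 4, 14 for GW347845 under the PPARγ virus, 177 for both agents against 67 and 3 for the interaction. With only the compared groups, 1 was called for the virus in vehicle and 2 for GW347845 under the PPARγ virus; without both number 2 arrays, 3. Leaving out 1 array gave 31 to 71, 3 to 7, 2 to 7, 0, 39 to 71 and 0 calls, in the order virus in compound, virus in vehicle, compound under the PPARγ and null viruses, both agents and interaction. Scd, Fads2 and the dim Fasn and Srebf1 probe sets lie near the filter, and their intervals are wide.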
